A study of Mus musculus with 9 samples.

Results

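The genes described here encode proteins of the mitochondrial ribosome. They were chosen by name, as the rows of the deposited expression table whose gene symbol begins with Mrpl or Mrps followed by a number and whose mean over all libraries was at least 1 FPKM (sequenced fragments per kilobase of gene at a common depth). Of 23231 rows, 79 met the rule: 31 rows with a small subunit symbol (Mrps) and 48 with a large subunit symbol (Mrpl). Pseudogenes account for 4 of these rows (Mrps36-ps1, Mrps36-ps2, Mrpl23-ps1 and Mrpl48-ps), which leaves 75 genes. No row with such a symbol was below the minimum. The 2 rows nearest above it were Mrpl48-ps at 1.22 FPKM and Mrps10 at 3.15 FPKM.

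The mitochondrial ribosome makes the few proteins that are encoded in mitochondrial DNA, which are core subunits of the respiratory chain and of ATP synthase. Its RNAs come from mitochondrial DNA, whereas all of its proteins are encoded in the nucleus, made in the cytosol and imported. The small subunit binds and decodes the messenger RNA, and the large subunit forms peptide bonds and delivers the new chain to the inner membrane. Many of the proteins have counterparts in bacterial ribosomes and others are found only in mitochondria. Skeletal muscle is rich in mitochondria and depends on this ribosome for oxidative metabolism.

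RNA came from tibialis anterior, a fast muscle of the lower leg, of C57BL/6 mice aged 6 months. Small interfering RNA (siRNA) had been delivered to the muscle by electroporation in every group: 3 libraries carried a non-targeting control siRNA, 3 carried construct 5 and 3 carried construct 7, both directed against Ubr4, a large E3 ubiquitin ligase. All groups therefore share the electroporation, and no untreated muscle was analysed here. The labels do not say whether the samples came from separate animals, so p-values measure the spread between these samples, which may be technical.

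Depth, solved from the spacing of low FPKM values, was 29312113 to 45563545 reads per library. Ubr4 was 7.82, 10.3 and 9.09 FPKM in the controls, 3.61, 3.80 and 2.73 FPKM with construct 5, and 2.25, 2.58 and 3.07 FPKM with construct 7. Its log2 change was -1.20 ± 0.129 (SE) with construct 5 (limma, adjusted p = 0.0168) and -1.47 ± 0.129 with construct 7 (limma, adjusted p = 0.00882). The 11 fast muscle genes sought as a check of the tissue, Acta1, Ckm and Myh4 among them, summed to 69500 to 91600 FPKM and were above 0 in every library. In bulk RNA, fewer cells of a type and less RNA per cell cannot be told apart.

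Both subunits were measured well above the limit of the depth. Mean levels per kilobase of the small subunit rows ran from 3.15 to 63.4 FPKM with a median of 16.3, and those of the large subunit rows from 1.22 to 296 FPKM with a median of 22.1. Behind the 75 genes lay at least 220 reads in any library, the lowest being Mrps6, so that counting alone gave an error of at most 6.74%. The pseudogene Mrpl48-ps had the fewest reads, 15 in its lowest library, with an exact Poisson 95% interval of 8.40 to 24.7 that covers counting error only. Within a group the libraries lay close together: the SD of the 3 controls had a median of 5.0% of the mean over the 79 rows.

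**Figure D1:**
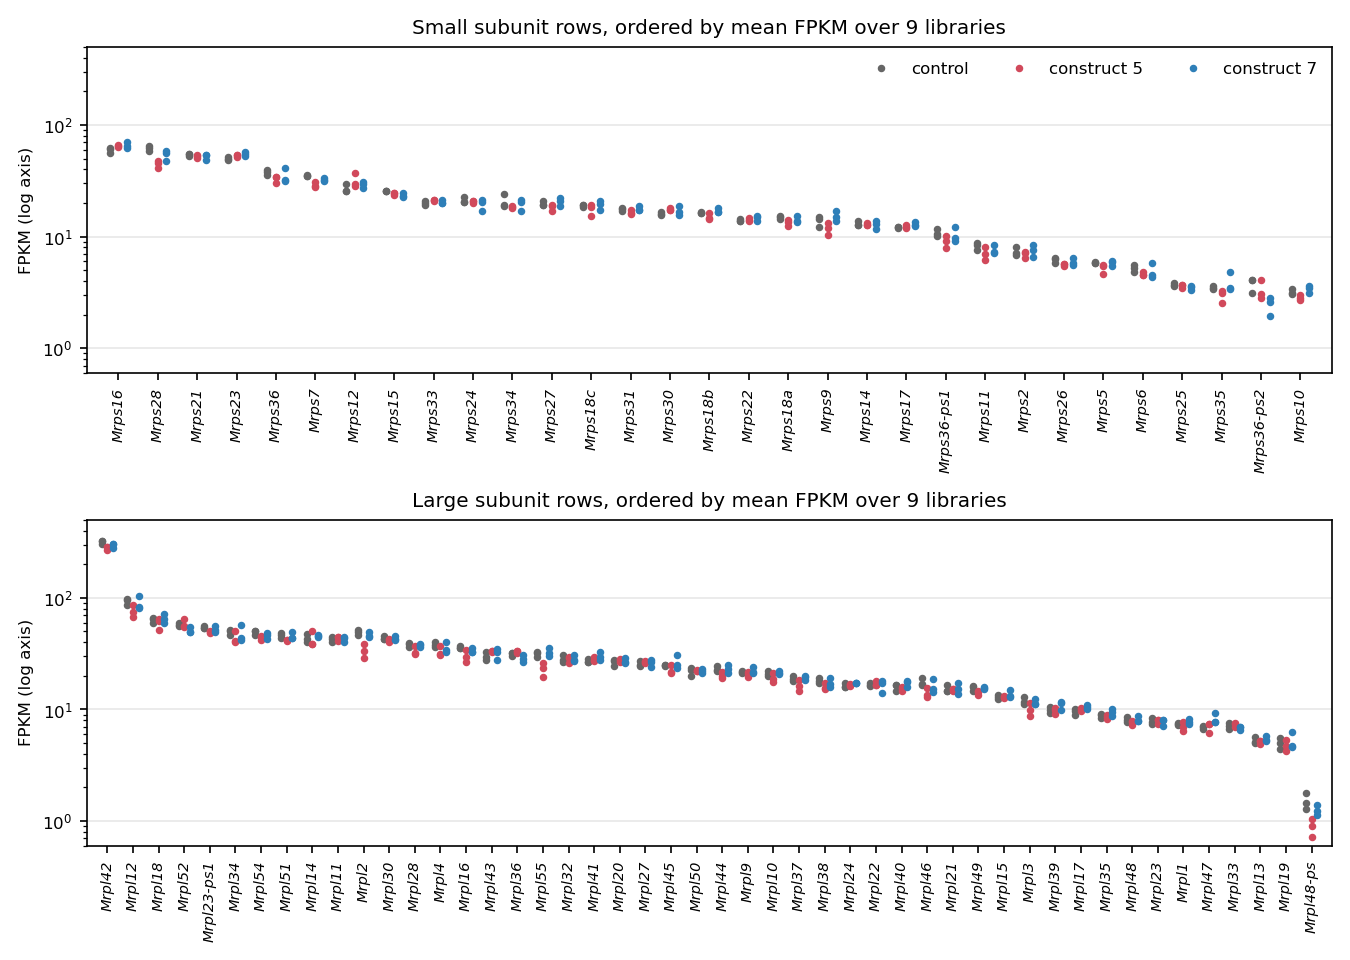
FPKM (log axis) of the 31 small subunit rows (top) and the 48 large subunit rows (bottom), ordered by mean over all libraries; each point is 1 library, coloured by group. Most members lie between 3 and 100 FPKM and the groups overlap for most of them; Mrpl42 stands highest at 296 FPKM and Mrpl48-ps lowest at 1.22 FPKM.

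Among the small subunit rows Mrps16 was the most abundant at 63.4 FPKM, followed by Mrps28 at 53.6 and Mrps21 at 52.9 FPKM. All 3 are counterparts of bacterial ribosomal proteins. The lowest levels were those of Mrps10 (3.15 FPKM), the pseudogene Mrps36-ps2 (3.18 FPKM) and Mrps35 (3.46 FPKM). In the large subunit Mrpl42, a protein found only in mitochondria, led at 296 FPKM. Mrpl12, which forms the flexible stalk that recruits translation factors, followed at 86.1 FPKM, and Mrpl18, a counterpart of a bacterial protein that binds ribosomal RNA, stood at 62.7 FPKM. At the low end of this subunit were Mrpl48-ps (1.22 FPKM), Mrpl19 (4.98 FPKM) and Mrpl13 (5.25 FPKM).

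Levels per kilobase depended on the gene length that the authors' counting used. That length could be solved for each of the 79 rows from the requirement of whole reads, and it equalled the summed exon length in the GENCODE M21 annotation for 40 rows. It differed for 38, of which 33 were shorter, and the deposited gene identifier of Mrpl33 had no match in M21. For Mrpl42 the table used 666 bases against 3682 in GENCODE M21; with the longer length its mean would be 53.5 FPKM. Across the 79 rows, level and length had a Spearman rho of -0.609, a description over genes that share libraries and a length definition. The order of levels between genes is therefore tied to these lengths, whereas the length of a gene is the same in all groups. Over the same rows the log2 change with construct 5 had a rho of 0.00656 with length and -0.0234 with level, and the change with construct 7 had 0.287 and -0.178.

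The counting may not have been able to separate reads of pseudogenes from those of their parent genes. Transcripts of Mrpl23-ps1 and Mrpl23 were identical at all 540 aligned bases, and the table listed the pseudogene at 51.9 FPKM and the gene at 7.79 FPKM. Mrpl48-ps was 98.1% identical to Mrpl48 over 636 bases, with 1.22 against 7.95 FPKM. Mrps36-ps1 and Mrps36-ps2 were 99.3% and 99.0% identical to Mrps36, which stood at 35.2 FPKM against 10.1 and 3.18 FPKM. Values of these 7 rows are uncertain for that reason.

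With construct 5, 5 of the 79 members fell and none rose (limma on log2(FPKM + 1), adjusted p under 0.05): Mrpl2, Mrps28, Mrps7, Mrpl55 and the pseudogene Mrpl48-ps. Over all 10794 genes tested, 0.602% were called lower and 4.67% higher. The 5 members make up 6.33% of the list and came from both subunits, 2 small and 3 large. Without adjustment 14 members (17.7%) had a p under 0.05, against 31.9% of all genes. Voom on the recovered reads called 4 members, all of the above except Mrpl48-ps, and 603 genes in all, 537 of them higher. With the values as deposited, limma called 504 genes of the whole table higher and 65 lower. With median-ratio scaling of the libraries this split became 14 higher and 64 lower.

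Mrpl2, the counterpart of a conserved bacterial protein that lies close to the peptidyl transferase centre, showed the largest change on the log2(FPKM + 1) scale. It is encoded at chr17:46646229-46650139 (GRCm38, plus strand). Its level was 51.1, 49.2 and 46.3 FPKM in the controls, 28.8, 38.8 and 33.4 FPKM with construct 5, and 45.0, 45.6 and 49.3 FPKM with construct 7. All construct 5 libraries lay below every other library, and the construct 7 libraries overlapped the controls. The mean with construct 5 was 33.6 ± 5.00 against 48.9 ± 2.42 FPKM in the controls (SD, n = 3 each), or 68.8% of control, a log2 change of -0.53 ± 0.102 (SE; limma, adjusted p = 0.0406).

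Mrps28, a small subunit protein (chr3:8802146-8923918, minus strand), was 64.3, 59.0 and 61.7 FPKM in the controls. It was 41.2, 46.0 and 47.4 FPKM with construct 5 and 59.0, 47.5 and 56.4 FPKM with construct 7. Every construct 5 library lay below every control and below the lowest construct 7 library, by a narrow margin in the case of replicate 3. Its log2 change was -0.45 ± 0.0933 with construct 5 (limma, adjusted p = 0.0424). With construct 7 it was -0.19 ± 0.0933, which did not pass the test (limma, adjusted p = 0.587), although each of those libraries was also below every control.

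Mrps7 (chr11:115603925-115608036, plus strand) is the counterpart of a bacterial protein that organises the head of the small subunit and contacts transfer RNA. It was 35.2, 35.9 and 34.9 FPKM in the controls, 28.5, 31.0 and 27.7 FPKM with construct 5, and 31.4, 32.1 and 33.4 FPKM with construct 7. The 3 groups did not overlap at all, with construct 7 between the others. Its change with construct 5 was the smallest of the 5, -0.28 ± 0.0646 on the log2 scale (limma, adjusted p = 0.0492). Of its 2072 exon bases, 127 are shared with Gga3 and 119 with Mif4gd, both on the opposite strand, and the counting is not stated to use strand. Gga3 was 2.55 FPKM in the controls and 3.32 FPKM with construct 5, and Mif4gd 13.3 and 15.6 FPKM. The part of the shared bases in the values of Mrps7 was not tested. Such sharing is not particular to Mrps7: 29 of the 78 members matched to GENCODE M21 share exon bases with another gene.

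Mrpl55 (chr11:59202486-59206134, plus strand), a large subunit protein without a bacterial counterpart, was 32.8, 31.8 and 29.5 FPKM in the controls. It was 19.6, 26.0 and 23.5 FPKM with construct 5 and 32.0, 30.3 and 35.6 FPKM with construct 7. The construct 5 libraries were again the lowest and construct 7 overlapped the controls. The log2 change was -0.44 ± 0.105 (limma, adjusted p = 0.0497). Mrpl48-ps was 1.29, 1.80 and 1.46 FPKM in the controls, 0.713, 0.897 and 1.04 FPKM with construct 5 and 1.14, 1.23 and 1.39 FPKM with construct 7. Its mean was 58.1% of control, lower than the 68.8% of Mrpl2. Its log2 change was -0.42 ± 0.0991 (limma, adjusted p = 0.0493), and -0.72 with a pseudocount of 0.1, while that of Mrpl48 itself was -0.07 (limma, adjusted p = 0.483).

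**Figure D2:**
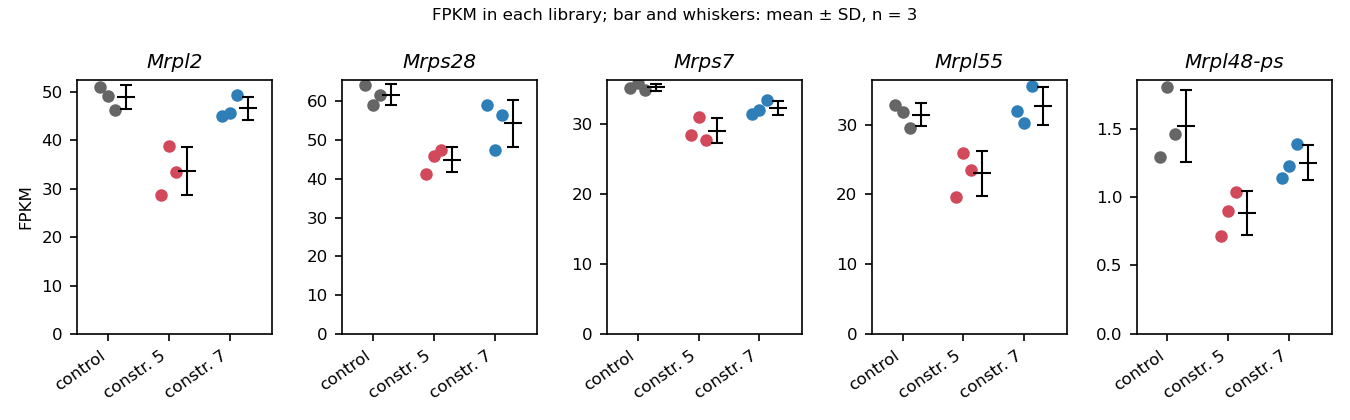
FPKM of the 5 members that fell with construct 5, 1 panel per gene on its own linear axis from 0; points are the 3 libraries of each group in replicate order, and the black bar with whiskers is the mean ± SD (n = 3). In every panel the construct 5 points lie below all control points, for Mrpl2 at 28.8 to 38.8 against 46.3 to 51.1 FPKM.

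These calls sat close to the threshold, with adjusted p-values of 0.0406 to 0.0497, and single libraries decided them. No member was called when control replicate 1, 2 or 3, construct 5 replicate 1 or construct 7 replicate 3 was left out. In those fits the whole table had 4, 4, 2, 1 and 6 called genes, in that order. Only Mrpl2 was called without construct 5 replicate 2, and 2 members (Mrpl2 and Mrps28) were called without construct 7 replicate 1. Without construct 5 replicate 3 there were 3 (Mrpl2, Mrpl48-ps and Mrps28), as there were without construct 7 replicate 2 (Mrpl2, Mrpl55 and Mrps28). In the fits that kept called members the whole table had 41, 356, 525 and 581 called genes, in that order. The direction did not change whichever library was left out: Mrpl2 ranged from -0.64 to -0.43 and Mrps28 from -0.49 to -0.39.

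The DNA just before the start of transcription is shown for the fallen members Mrpl2 (chr17:46646121-46646220) and Mrpl55 (chr11:59202386-59202485), and for the 3 most abundant members that have a motif of the ETS family in this stretch and no annotated exon of their own there (GENCODE M21), which leaves out Mrps16 and Mrpl51: Mrpl52 (chr14:54426809-54426908), Mrpl34 (chr8:71464826-71464925) and Mrpl43 (chr19:45006443-45006542, minus strand, the others plus). Each is the 100 bases up to the annotated start, 5′ to 3′ on the strand of the gene (RefSeq, GRCm38.p6), with motif letters in capitals.
Mrpl2: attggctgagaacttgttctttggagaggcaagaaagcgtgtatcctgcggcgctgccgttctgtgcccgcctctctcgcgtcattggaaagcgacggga
Mrpl55: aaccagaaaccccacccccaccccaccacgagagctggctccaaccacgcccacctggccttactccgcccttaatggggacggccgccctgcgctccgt
Mrpl52: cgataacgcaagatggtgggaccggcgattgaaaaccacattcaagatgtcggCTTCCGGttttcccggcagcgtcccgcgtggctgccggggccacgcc
Mrpl34: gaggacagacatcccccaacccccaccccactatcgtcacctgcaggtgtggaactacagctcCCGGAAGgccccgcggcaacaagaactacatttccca
Mrpl43: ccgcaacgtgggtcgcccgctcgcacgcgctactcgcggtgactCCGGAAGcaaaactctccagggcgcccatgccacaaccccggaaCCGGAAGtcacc

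The motifs searched on both strands were CCGGAAG for the ETS family, to which GABPA belongs, GCGCATGC for NRF1 and AAGATGGC for YY1, 3 factors known to act on nuclear genes for mitochondrial proteins. RefSeq windows of 300 bases, 250 before and 50 after the start, matched 66 of the 79 members. The ETS motif was found in 23 of them (34.8%), against 9.93% of all 27025 genes in the table of promoters and 20.8% of the 7192 matched genes tested here. The YY1 motif was found in 12 members (18.2% against 3.19% and 5.74%) and the NRF1 motif in 8 (12.1% against 3.05% and 6.48%). Among 64 cytosolic ribosomal proteins the shares were 40.6% (ETS), 9.38% (YY1) and 4.69% (NRF1). Among 34 complex I subunits they were 11.8%, 20.6% and 8.82%. Neither the ETS share nor the YY1 share was thus particular to the members. In the printed stretches Mrpl52 holds the ETS motif on the reverse strand, as CTTCCGG, Mrpl34 holds 1 copy and Mrpl43 holds 2, while those of Mrpl2 and Mrpl55 hold none of the motifs. A match of letters is a description and not a bound site.

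With construct 5 the median log2 change was -0.02 for the 23 members with the ETS motif and -0.07 for the 43 without. It was -0.12 for the 12 with the YY1 motif and -0.06 for the 54 without. For the NRF1 motif it was -0.02 for the 8 with and -0.07 for the 58 without. These differences were not tested. Mrps7 holds the YY1 motif at position 19, counted from its annotated start. Small and large subunit windows differed little in the share with any of the motifs, 53.8% of 26 and 52.5% of 40. The NRF1 motif was in 1 of the 26 small subunit windows and in 7 of the 40 large subunit windows.

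Over all 79 members, the called ones included, most were slightly lower with construct 5. The median log2 change was -0.073 over the 79 members, -0.107 over the small and -0.064 over the large subunit rows, beside 0.13 over all genes tested. Of the members, 57 were below 0, as were 2511 of the 10794 genes tested, and 77 were below the median of all genes. All 3 construct 5 libraries lay below every control for 23 members (29.1%, 11 small and 12 large), against 5.19% of all genes. They lay above every control for 2 members, Mrps16 and Mrps30, or 2.53% against 33.0% of all genes. The members and all genes were fitted in the same libraries, so these counts share every difference in scaling between them.

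**Figure D3:**
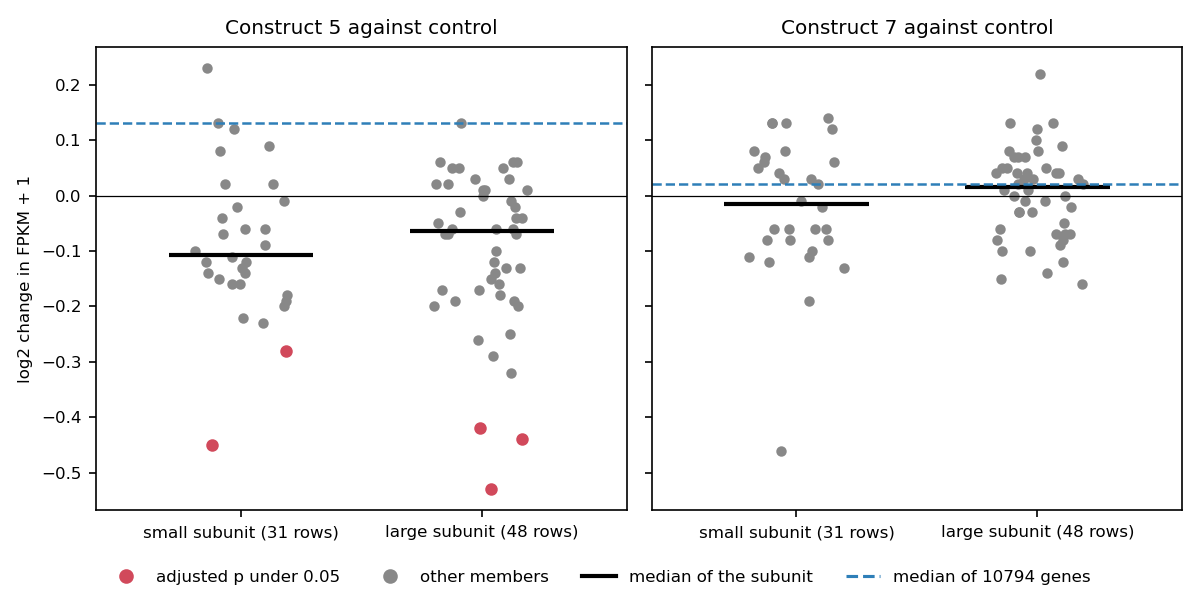
Log2 change in FPKM + 1 of each small subunit row (31) and large subunit row (48) with construct 5 (left) and construct 7 (right); red points have an adjusted p under 0.05, black bars are subunit medians and the dashed line is the median of all 10794 genes tested. With construct 5 the medians, -0.107 and -0.064, lie below the 0.13 of all genes; with construct 7 they are -0.015 and 0.016 beside 0.02.

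How the libraries are put on a common scale moved these medians but moved all genes with them. Median-ratio scaling took the median of all genes with construct 5 from 0.13 to 0.011 and that of the members to -0.214. Quantile normalization gave -0.007 and -0.187, and rescaling to equal totals gave 0.199 and -0.019. Relative to all genes the members' median was -0.203 as deposited, and -0.225, -0.180 and -0.218 under those 3 scalings. The number of members below 0 ranged from 46 to 78 over the same settings.

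Other features of the libraries differed with construct 5 as well. All 16 macrophage genes were above 0 in every library, and their sum was 216 to 307 FPKM in the controls, 339 to 611 with construct 5 and 182 to 278 with construct 7. Of these genes 3 were called higher with construct 5 (limma, adjusted p under 0.05), where 4.67% of all genes were. The 10 fibroblast and matrix genes summed to 539 to 648, 695 to 1030 and 418 to 502 FPKM in the same order. Of these, 1 was called higher with construct 5, Col1a2 (limma, adjusted p = 0.0491). Slow fibre genes, 7 in all, summed to 53.3 to 71.4 FPKM in the controls and 68.7 to 98.7 FPKM with construct 7. Every construct 5 library lay above the control range, up to 102 FPKM. Of the 6 slow fibre genes tested, 5 were higher with construct 5 and 1 was lower, at a log2 change of -0.4. None of them was called (limma). The 4 satellite cell genes summed to 9.52 to 13.3 FPKM in the controls, 14.4 to 28.2 with construct 5 and 8.78 to 16.5 with construct 7. Only 1 of the 4, Myod1, reached a mean of 1 FPKM. Its log2 change with construct 5 was 0.76 (limma, adjusted p = 0.104). Neutrophil genes reached 33.2 FPKM in construct 5 replicate 2 and at most 1.79 FPKM in any other library, and S100a8 and Retnlg of that list were at 0 in some libraries. Endothelial genes overlapped between the groups, at 89.9 to 103 FPKM in the controls, 85.3 to 111 with construct 5 and 87.1 to 98.6 with construct 7. Erythroid genes overlapped too, at 119 to 186, 110 to 250 and 180 to 219 FPKM. The part of the differences above in the members' values was not tested.

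Among the other members that were lower without passing the test, Mrpl46, a large subunit protein without a bacterial counterpart, was 19.2, 16.6 and 16.8 FPKM in the controls and 12.8, 15.5 and 13.4 FPKM with construct 5. It was lower than every control in all 3 libraries (log2 change -0.32; limma, adjusted p = 0.104). Mrpl12 had 95.6, 98.2 and 85.8 FPKM in the controls and 67.5, 87.0 and 74.6 FPKM with construct 5, where replicate 2 overlapped the control range (log2 change -0.29; limma, adjusted p = 0.135). Mrpl16, a counterpart of a bacterial protein of the large subunit, had 37.2, 35.2 and 35.8 FPKM in the controls and 26.6, 33.8 and 29.6 FPKM with construct 5, all 3 below every control (log2 change -0.26; limma, adjusted p = 0.0911). Mrpl42 had 320, 302 and 325 FPKM against 266, 283 and 283 FPKM, groups that did not overlap, for a log2 change of -0.19 (limma, adjusted p = 0.115).

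On the other side, Mrps30 was 15.7, 15.8 and 16.7 FPKM in the controls and 17.9, 17.4 and 17.5 FPKM with construct 5 (log2 change 0.13; limma, adjusted p = 0.279). Mrps16 had 60.6, 62.1 and 55.9 FPKM in the controls and 63.5, 64.3 and 66.9 FPKM with construct 5 (log2 change 0.12; limma, adjusted p = 0.255). Neither passed the test, and both were below 0 with median-ratio scaling, Mrps30 at -0.01 and Mrps16 at -0.02. The highest change, 0.23 for Mrps12, a protein of the decoding centre, came with 37.3 FPKM in construct 5 replicate 1 against 28.7 and 29.8 FPKM in the other two, beside 25.7, 29.5 and 25.5 FPKM in the controls (limma, adjusted p = 0.171).

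Some symbols do not match the protein's place. Mrps36 belongs to the oxoglutarate dehydrogenase complex of the citric acid cycle rather than to the ribosome. It was 39.6, 37.9 and 35.5 FPKM in the controls, 30.0, 34.1 and 34.5 FPKM with construct 5 and 31.7, 32.3 and 40.9 FPKM with construct 7, a log2 change with construct 5 of -0.19 (limma, adjusted p = 0.230). Mrps30 and Mrps18a are proteins of the large subunit in known structures. The paralogs Mrps18a, Mrps18b and Mrps18c stood at 15.0 ± 0.375, 16.5 ± 0.279 and 18.9 ± 0.410 FPKM in the controls (SD, n = 3). Their log2 changes with construct 5 were -0.16, -0.12 and -0.10, and none passed the test (limma, adjusted p = 0.173, 0.262 and 0.452). With the subunits assigned by structure the medians with construct 5 were -0.105 for the small and -0.063 for the large subunit.

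The groups of conserved and of mitochondrial proteins were also set side by side, a division made after the values were seen. Of the 75 genes, 45 carry a name that marks a bacterial counterpart and 29 a name that marks a mitochondrial protein; Mrps36 was put in neither. Their median levels were 20.4 and 18.3 FPKM. With construct 5 the median log2 change was -0.06 for the conserved and -0.12 for the mitochondrial proteins. All 3 libraries lay below every control for 8 of 45 and for 12 of 29, against 5.19% of all genes. The fallen genes Mrpl2, Mrps28 and Mrps7 are in the conserved group and Mrpl55 is in the other.

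With construct 7 no member was called (limma), where 0.0556% of all genes were; 2 (2.53%, against 9.47% of all genes) had an unadjusted p under 0.05, and voom also called none. The median log2 change was 0.009 over the members, -0.015 over the small and 0.016 over the large subunit rows, beside 0.02 over all genes. Libraries with construct 7 lay below every control for 5 members (6.26% of all genes did so) and above every control for another 5 (10.5% of all genes). Those below were Mrps28, Mrps7, Mrps15, Mrpl52 and Mrps36-ps2, and those above were Mrpl47, Mrpl17, Mrpl24, Mrps17 and Mrps23.

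The members with the lowest and the highest log2 change with construct 7 were both of low level. Mrps36-ps2 was 4.09, 3.10 and 4.05 FPKM in the controls and 1.93, 2.61 and 2.85 FPKM with construct 7 (log2 change -0.46; limma, adjusted p = 0.365), on as few as 19 reads in a library. Mrpl47, which lies at the exit of the peptide tunnel, was 7.04, 6.98 and 6.64 FPKM in the controls and 7.69, 7.74 and 9.27 FPKM with construct 7 (log2 change 0.22; limma, adjusted p = 0.491), where replicate 3 stood apart from the other two. Mrpl52 was 57.3, 59.4 and 55.4 FPKM against 49.6, 55.1 and 49.9 FPKM (log2 change -0.15; limma, adjusted p = 0.596). Mrps15, the member with the smallest spread among the controls, was 25.5, 25.4 and 25.8 FPKM against 23.0, 22.7 and 24.5 FPKM (log2 change -0.12; limma, adjusted p = 0.572). At the other extreme of spread, taken as the SD of log2(FPKM + 1), Mrps34 was 19.4, 24.3 and 18.7 FPKM in the controls, where replicate 2 was high.

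Tested directly against each other, the constructs did not differ for any member at an adjusted p under 0.05 (limma), where 1.22% of all genes were called. In that comparison 13 members (16.5%, against 23.1% of all genes) had an unadjusted p under 0.05, and voom called none of the members. Mrpl55 was 0.49 higher on the log2 scale with construct 7 (limma, adjusted p = 0.0584) and Mrpl2 was 0.47 higher (limma, adjusted p = 0.0606), both missing the threshold. Averaging the constructs and comparing them with control gave no called member (limma; 0.00926% of all genes were called), 7 members with an unadjusted p under 0.05 (8.86%, against 19.1% of all genes) and none with voom. The smallest adjusted p there was 0.111, for Mrps28 with a log2 change of -0.32. Between the constructs the median over the members was 0.09, higher with construct 7, beside -0.099 over all genes; 61 of the 79 members were above 0 and 4 were below the median of all genes. No single member passed the test of that difference. The comparisons of each construct with control share the same 3 controls.

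The small and large subunits stayed close to each other in every library. Summed over its rows, the small subunit came to 628 ± 10.2 FPKM in the controls, 595 ± 7.00 with construct 5 and 624 ± 30.2 with construct 7 (SD, n = 3). The large subunit came to 1570 ± 40.0, 1430 ± 55.1 and 1540 ± 87.2 FPKM. For both sums every construct 5 library lay below every control, at 587 to 600 against 616 to 635 FPKM for the small and 1380 to 1490 against 1530 to 1610 FPKM for the large subunit. The ratio of the small to the large sum was 0.400 ± 0.00608, 0.415 ± 0.0118 and 0.406 ± 0.00252, so the group means differed by about as much as libraries of 1 group. Over single libraries it ran from 0.393 in control replicate 1 to 0.425 in construct 5 replicate 1. Without Mrpl42 the ratio was 0.501 ± 0.0105 in the controls, 0.514 ± 0.0161 with construct 5 and 0.502 ± 0.00702 with construct 7. Together the members took 0.422% to 0.434% of all FPKM in the controls, 0.407% to 0.424% with construct 5 and 0.418% to 0.447% with construct 7. As a share of all FPKM, the construct 5 libraries thus overlapped the controls.

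A median taken per gene also kept the subunits close, but not in the same order. With construct 5 the mean ratio of sums was above that of the controls, whereas the median log2 change was lower for the small subunit (-0.107 against -0.064). The median deviation from the control mean was -0.131, -0.048 and -0.083 for the small subunit and -0.145, -0.030 and -0.051 for the large subunit in construct 5 replicates 1, 2 and 3. In construct 7 replicates 1, 2 and 3 it was -0.047, -0.019 and 0.084 for the small and -0.034, -0.029 and 0.103 for the large subunit. The gap between the subunits was at most 0.041 in either direction over the 9 libraries, and the 3 libraries of either construct differed among themselves by more than that. Construct 5 replicate 1 was the lowest of all libraries for 36 members, and construct 7 replicate 3 was the highest for 41.

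**Figure D4:**
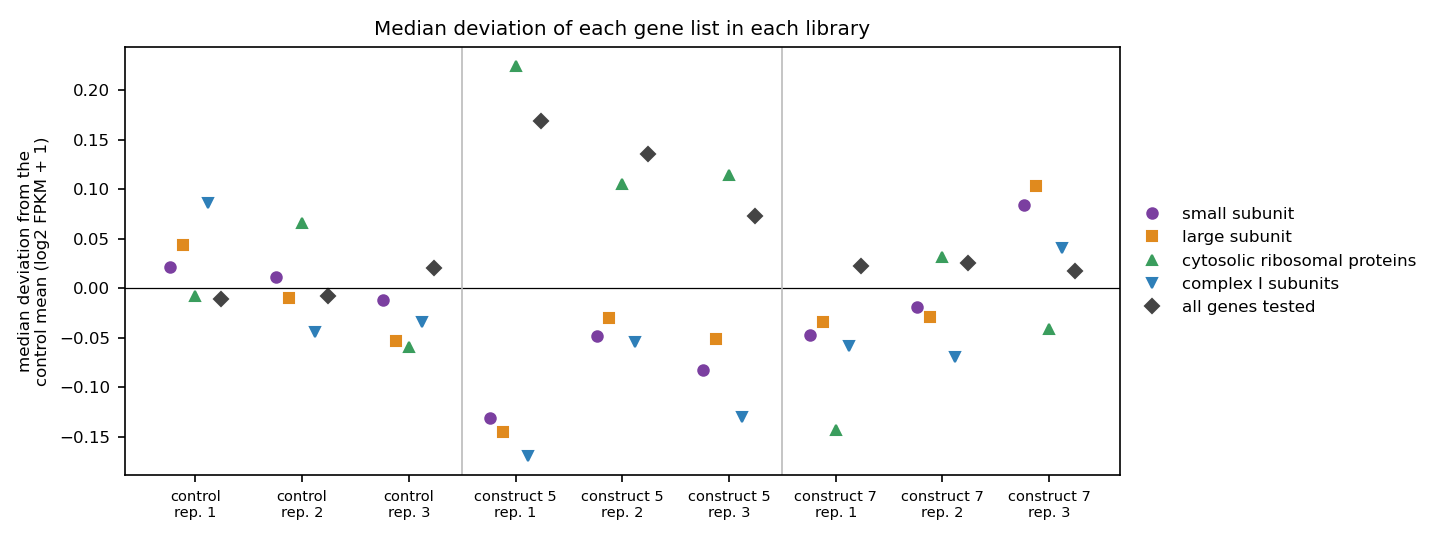
Median deviation from the control mean, in log2(FPKM + 1), of 5 gene lists in each of the 9 libraries; each symbol is 1 list in 1 library. The 2 mitochondrial ribosomal subunits lie near each other and near complex I, from about -0.14 in construct 5 replicate 1 to 0.10 in construct 7 replicate 3, while cytosolic ribosomal proteins and all genes are above 0 with construct 5.

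The 82 cytosolic ribosomal proteins tested, which build the other ribosome of the cell, held 1 gene called higher with construct 5, against 4.67% of all genes. That gene was Rps27, from 152 ± 6.85 to 190 ± 10.6 FPKM (SD, n = 3), with an adjusted p of 0.0486 (limma). The call was lost with median-ratio scaling and with quantile normalization. The median log2 change of the 82 was 0.142, close to the 0.13 of all genes. The 37 nuclear subunits of complex I, a main user of mitochondrial translation, had a median of -0.109 with construct 5. Of them 35 were below 0, but none was called (limma). An unadjusted p under 0.05 was found for 9 of them, against 31.9% of all genes. The smallest adjusted p was 0.0741 (limma), for Ndufs7. Ndufa10 was 144 ± 4.04 FPKM in the controls and 117 ± 14.8 FPKM with construct 5. The median of complex I stands beside the -0.073 of the mitochondrial ribosomal proteins. With construct 7 the medians were -0.053 for the cytosolic ribosomal proteins and -0.024 for complex I.

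The 15 genes of mitochondrial DNA, which this ribosome translates or whose RNA it contains, had a median of -0.233 with construct 5 and 0.001 with construct 7. With construct 5 it was -0.381 with median-ratio scaling and -0.059 with quantile normalization. None was called with either construct (limma), none had an unadjusted p under 0.05, and mt-Nd4 had the smallest p, at 8060 ± 929 FPKM in the controls and 6630 ± 829 FPKM with construct 5 (limma, adjusted p = 0.195). For mt-Nd5 the means were 5270 ± 145 and 4490 ± 579 FPKM. Their sum was 100000 FPKM in construct 5 replicate 1 and 121000 to 152000 FPKM in the other libraries. That library was also the lowest for the mitochondrial ribosomal proteins.

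Proteins of the mitochondrial ribosome that carry other symbols were few and none was called with either construct (limma). The 4 of the small subunit (Dap3, Ptcd3, Chchd1 and Aurkaip1) had a median log2 change of -0.118 with construct 5 and 0.039 with construct 7. The 3 of the large subunit (Gadd45gip1, Ict1 and Mrp63) had -0.152 and -0.015. Dap3, a GTP-binding protein of the small subunit, was 8.43 ± 0.679 FPKM in the controls and 7.52 ± 0.553 with construct 5, and Aurkaip1 was 26.0 ± 0.753 and 24.0 ± 1.56. Ict1, a peptidyl-tRNA hydrolase within the large subunit, was 8.56 ± 0.359 and 7.30 ± 0.607 FPKM (SD, n = 3; limma, adjusted p = 0.112). It was the only one of the 7 with an unadjusted p under 0.05, against 31.9% of all genes. Gadd45gip1 was 15.4 ± 1.26 and 13.8 ± 1.41 FPKM.

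Genes that assemble or serve the mitochondrial ribosome gave no call with either construct (limma). The 28 assembly and RNA modification factors tested had a median of -0.017 with construct 5; the methyltransferase Tfb1m was 5.09 ± 0.516 FPKM in the controls and 6.48 ± 0.625 with construct 5 (limma, adjusted p = 0.104), and the small subunit assembly factor Rbfa 18.8 ± 0.907 and 17.1 ± 0.927. The 16 translation factors had a median of -0.084, with the release factor Mtrf1 at 7.19 ± 0.241 and 6.32 ± 0.334 FPKM and the RNA-binding protein Lrpprc at 14.8 ± 0.481 and 12.2 ± 1.91. The 19 mitochondrial aminoacyl-tRNA synthetases had a median of -0.101, with Ears2 at 1.58 ± 0.0541 and 1.16 ± 0.0725 FPKM (limma, adjusted p = 0.0603). At an unadjusted p under 0.05 there were 2, 2 and 5 genes in these lists with construct 5, where 31.9% of all genes were. Voom called 1 gene of these lists, Ears2. With construct 7 voom called none. Quantile normalization called 2 synthetases with construct 5, Ears2 among them.

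Upstream of the ribosome, the 25 genes for mitochondrial DNA maintenance, transcription and RNA processing had a median of 0.074 with construct 5 and no call (limma). An unadjusted p under 0.05 was found for 6 of them, against 31.9% of all genes. Tfam, which packages mitochondrial DNA, was 9.53 ± 0.181 FPKM in the controls and 11.2 ± 0.258 with construct 5 (limma, adjusted p = 0.0650), and Ptcd2 was 17.6 ± 0.516 and 19.1 ± 0.589. Ptcd2 is named for its p with construct 7, the smallest of the list there (limma, adjusted p = 0.365). With construct 7, 5 of the 25 genes had an unadjusted p under 0.05, where 9.47% of all genes did. Of 10 regulators of nuclear genes for mitochondrial proteins, 1 was called higher with construct 5, Gabpa, where 4.67% of all genes were. Gabpa, the DNA-binding subunit of the factor that reads the ETS motif above, went from 4.54 ± 0.345 to 5.95 ± 0.242 FPKM (SD, n = 3). Its log2 change was 0.33 (limma, adjusted p = 0.0491). With median-ratio scaling or quantile normalization none of the 10 was called. Rescaling to equal totals added calls with construct 5: Tfam, Ppargc1a, and 7 more cytosolic ribosomal proteins beside Rps27. Voom called Gabpa and Rps27 with construct 5, and none of the genes of mitochondrial DNA, the complex I subunits or the ribosomal proteins with other symbols with either construct.

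**Figure D5:**
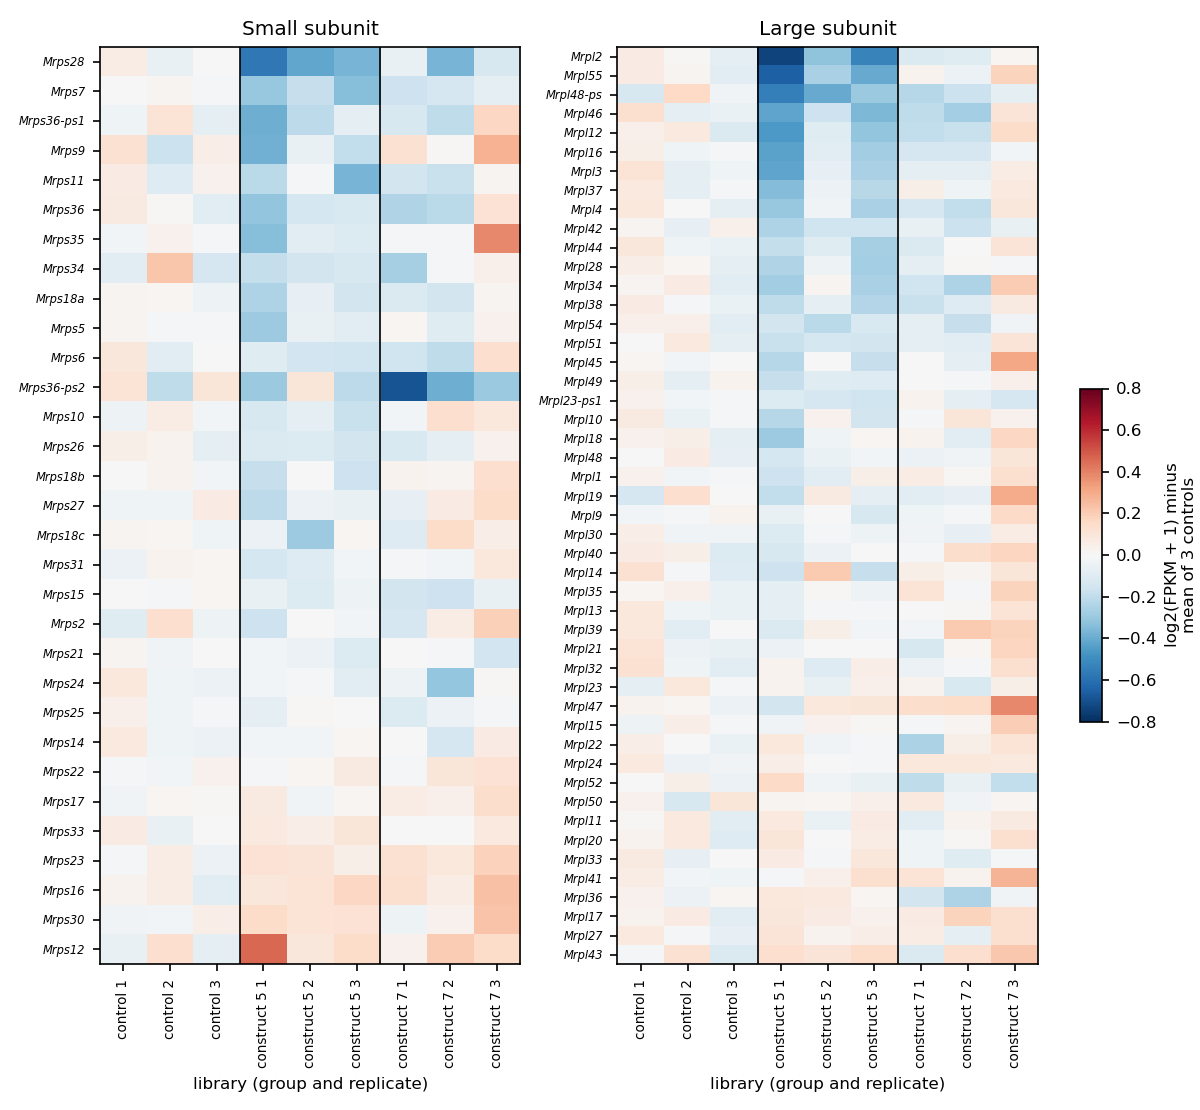
Deviation of log2(FPKM + 1) from the mean of the 3 controls (colour scale, blue lower and red higher) for every member (rows, ordered within each subunit by the change with construct 5) in each of the 9 libraries (columns). Construct 5 replicate 1 is the bluest column, lowest of all libraries for 36 members, and construct 7 replicate 3 the reddest, highest for 41.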

How the data were processed

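The members and gene lists were chosen with earlier results of these data known. The deposited table holds FPKM values that the authors made for 9 libraries; BWA, STAR, HTSeq and the build mm9 are named in the submitters' processing notes, and their versions, their roles and the annotation are not given in the sources used here. FPKM removes depth and gene length by the authors' own length, so it fixes what a level between genes means.

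From the table, log2(FPKM + 1) of the 10794 genes with a mean of at least 1 FPKM entered 1 linear model of the 9 libraries, fitted by limma (version 3.58.1; R version 4.3.3) with eBayes and its trend option, and 4 contrasts were taken. Genes with a Benjamini-Hochberg adjusted p under 0.05 within a contrast were called; a log2 change refers to FPKM with 1 added and so understates the change of low genes. Subunit medians and sums were given no test. Depth and gene lengths were solved from steps between low values: 4409 tested genes gave whole reads with the GENCODE M21 length, 6340 with another length and 45 with none. Intervals cover counting error only. Cell markers were summed per library. Transcript identity came from blastn 2.17.0 on GENCODE M21 transcripts.

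Members were named if called, if among the 5 largest changes per direction and construct with groups that did not overlap, if among the 3 most or least abundant of a subunit, if the symbol misleads, or for extreme spread; Mrpl12 was always named, and so were called genes of the other lists or their 2 smallest p; 1 gene so chosen is not reported here. Mrpl42, Mrps12 and Mrpl16 beside construct 5, Ppargc1a, and the division by bacterial counterpart, were chosen after values were seen. Alternatives were 11 beside leaving out each library, and 3 added after seeing the data. The fit was tested on simulated data, with 100 genes changed by 0.25 and 100 by 0.5 on the log2 scale. It called 5% of the former and 42% of the latter. A member that was not called may therefore still have changed by such amounts.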

Additional observations from a re-analysis of the deposited data

How the results depend on the processing

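Direction was kept by Mrpl2, Mrps28, Mrpl55, Mrps7 and Mrpl48-ps under every alternative that gave them a value, but their calls were not. The construct 5 comparison called 2 members with a pseudocount of 0.1, 3 with 0.5, 3 with a minimum of 5 FPKM, 3 with median-ratio scaling, 3 with quantile normalization, 1 with the 6 libraries of that comparison alone and 0 without a filter. Over all genes it called 316 with a pseudocount of 0.1, 432 with 0.5, 5 without a filter and 204 at 5 FPKM. It called 78 with median-ratio scaling, 86 with quantile normalization, 1024 with equal totals and 246 with 6 libraries. Subunit medians with construct 5 were -0.244 (small) and -0.200 (large) with median-ratio scaling, -0.194 and -0.167 with quantile normalization, and -0.049 and -0.008 with equal totals. Median-ratio scaling without construct 5 replicate 1 called 0 members and 4 genes, with medians of -0.190 and -0.143. Mrps30 turned to -0.01 and Mrps16 to -0.02 with median-ratio scaling, and Mrps30 to -0.00 when construct 5 replicate 1 was left out as well. Ubr4 over both constructs was -1.33 (limma, adjusted p = 0.0677) without a filter. The cause was not tested.

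With construct 7, all genes gave 0 calls without a filter and 2 with 6 libraries, and the small minus large median became 0.017 with subunits assigned by structure, against -0.030. For both constructs, all genes gave 0 calls without a filter, 2 at 5 FPKM, 2 with equal totals and 2 with voom. Medians over both constructs were -0.003 (small) and 0.008 (large) with equal totals, -0.119 (small) and -0.113 (large) with median-ratio scaling, -0.123 (small) and a gap of -0.040 with quantile normalization, and -0.094 (small) with median-ratio scaling without construct 5 replicate 1. Between the constructs, all genes gave 10 calls without a filter, 48 at 5 FPKM, 79 with median-ratio scaling, 58 with quantile normalization, 23 with 6 libraries, 199 with voom and 19 with median-ratio scaling without construct 5 replicate 1. The medians there were 0.188 (small) and 0.216 (large) with median-ratio scaling, 0.169 and 0.178 with quantile normalization, and 0.148 (small) without construct 5 replicate 1 as well. The fit limited to the groups compared has no separate value for both constructs, since it then holds all 9 libraries.

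Leaving out each library in turn, construct 5 called 0 to 3 members and 1 to 581 genes, with medians of -0.128 to -0.078 (small), -0.089 to -0.027 (large) and -0.051 to -0.005 (small minus large). Construct 7 called 0 to 0 members and 0 to 5 genes, with -0.037 to 0.026, -0.031 to 0.036 and -0.039 to -0.001. Both constructs called 0 members and 0 to 7 genes, with -0.056 to -0.029, -0.053 to -0.009 and -0.035 to -0.002. Between constructs there were 0 to 1 members and 3 to 387 genes, with 0.023 to 0.103, 0.065 to 0.138 and -0.063 to -0.019. Ubr4 ran from -1.43 to -1.25, with adjusted p-values (limma) of 0.00504 to 0.0545.

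Same-numbered libraries had correlations of -0.364 to 0.313, with 2 of 9 over 0.1 and 2 of 9 libraries closest to their own number. The labels do not say whether replicate numbers pair the samples, and these few libraries cannot settle it. With the replicate number as a block, construct 5 called 0 members and 11 genes, both constructs 4 genes and the comparison between constructs 217 genes. Without the block these gene counts were 569, 1 and 132.

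Depth limited the pseudogenes most, at 15 reads for Mrpl48-ps and 19 for Mrps36-ps2 in their lowest libraries, against at least 220 for the genes.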
